A study of Arabidopsis thaliana with 6 samples.

Results

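ZAT and AZF genes code for small C2H2 zinc finger proteins that bind DNA through a pair of fingers and, in several members, repress transcription through a short leucine-rich EAR motif. They are known in Arabidopsis as fast responders to cold, salt, drought, high light and reactive oxygen, and several of them act in the network that adjusts the plant to oxidative stress. The 10 genes described here, ZAT5, ZAT6, ZAT7, ZAT8, ZAT10, ZAT11, ZAT12, AZF1, AZF2 and AZF3, were chosen by locus identifier out of the 32678 genes of the count table, and all 10 were present and passed the filter on low counts. In leaves that overexpress the immune receptor gene RPS4, 8 of them rose relative to wild type, as did 6.46% of all tested genes. Of these 8, 5 rose by more than 100-fold in mean level. ZAT8, which had no read in Col-0, was higher in each 35S:RPS4 library but missed the threshold, and ZAT5 showed no detectable difference.

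PolyA RNA was sequenced from leaves of 35S:RPS4 (genotype Col-0 35S:RPS4-HS, in which the constitutive 35S promoter drives the TNL receptor RPS4) and of Col-0 wild type, 3 libraries per group. All plants were 3.5 weeks old, had been kept at 28 °C, which holds RPS4 signalling back, and were collected 2 h after transfer to 19 °C, which releases it. Col-0 underwent the same transfer, so both groups carry the response to cooling, and no library from before the transfer was analysed. The contrast therefore compares the genotypes after cooling, in 1 transgenic line, and differences already present at 28 °C cannot be told apart from those that followed the transfer. Total gene counts ran from 29835605 to 31007551 per 35S:RPS4 library and from 28659022 to 30237250 per Col-0 library. RPS4 itself (AT5G45250) had 605, 759 and 907 CPM (counts scaled to the library size by TMM) in 35S:RPS4 replicates 1 to 3, against 21.2, 29.8 and 30.2 CPM in Col-0. All 4 leaf mesophyll markers were abundant, with a summed level of 32600 to 38100 CPM in 35S:RPS4 and 31800 to 34600 CPM in Col-0. Of the root hair markers COBL9 and RHD6 and the senescence marker SAG12, COBL9 had no read in any library, and the other two had 1 read each in 35S:RPS4 and none in Col-0. Replicate 1 stood apart in both groups, with a chi-square per gene of 33.9 and 39.7 against the other 35S:RPS4 libraries and of 33.1 and 25.5 against the other Col-0 libraries, while replicates 2 and 3 differed by 9.73 in 35S:RPS4 and 8.31 in Col-0. Over the 1188 raised genes, 35S:RPS4 replicate 1 had a median of 0.63 of the mean level of replicates 2 and 3.

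All 10 genes share their architecture. Each is annotated with 1 exon, a feature of 20.5% of the 27444 protein-coding genes compared, and each protein holds QALGGH, the DNA-contacting helix signature of plant C2H2 fingers, 2 times. That signature was found in 60 genes of the genome, of which 26 hold 2 copies. The proteins run from 162 residues in ZAT12 to 286 in ZAT5. Over the 45 pairs the median protein identity was 26.7%, but related pairs stood out. ZAT7 and ZAT8 were 86.5% identical, ZAT8 and ZAT12 68.5%, ZAT6 and ZAT10 68.4%, ZAT7 and ZAT12 62.9%, and ZAT10 and AZF3 59.6%. The EAR-type tetrapeptide DLNL was present in 4 proteins, ZAT5, ZAT11, AZF1 and AZF2. DLNL also occurred in other genes with QALGGH, among them AT5G04390 and AT5G03510. A looser repeat of leucines with 1 residue between them was present in 7 of the 10 proteins. The share of other proteins with this repeat was not counted. Other forms of the EAR motif were not covered, so a protein without these matches cannot be said to lack one.

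The coding bases of the first zinc finger show how close the relatives are. They are given 5′ to 3′ on the coding strand, from the first cysteine codon to the last histidine codon, with the QALGGH codons in capitals (TAIR10.1; ZAT7 chr3:16926625-16926687, ZAT8 chr3:16923071-16923133 and ZAT10 chr1:9648680-9648742 on the minus strand, ZAT12 chr5:24103193-24103255 on the plus strand).
ZAT7: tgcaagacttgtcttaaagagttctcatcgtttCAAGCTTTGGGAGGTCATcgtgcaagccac
ZAT8: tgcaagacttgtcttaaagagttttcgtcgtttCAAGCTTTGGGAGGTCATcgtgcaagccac
ZAT12: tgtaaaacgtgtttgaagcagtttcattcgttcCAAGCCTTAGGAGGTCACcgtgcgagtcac
ZAT10: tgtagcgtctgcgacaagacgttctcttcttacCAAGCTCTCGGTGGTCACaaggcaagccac
ZAT7 and ZAT8 differed at 2 of these 63 bases, ZAT7 and ZAT12 at 17. Over the whole transcripts, however, no stretch of 50 bases of any of the 10 genes occurred a second time in the genome. ZAT7 (AT3G46090, chromosome 3, 16925881 to 16926883) and ZAT8 (AT3G46080, 16922514 to 16923299) lie on the same strand with 2581 bases between them. A further gene with 2 copies of the signature, AT3G46070, lies on the other side of ZAT8. Of the 10 genes, AZF3 was the exception in overlapping another annotated gene, AT5G43160 on the opposite strand, and since the libraries do not mark strand, reads from their overlap cannot be told apart.

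CGCG is a form of CGyG (y, C or T), which the study gives as the core bound by CAMTA factors. The other form, CGTG, was not searched by itself, so a member without CGCG cannot be said to lack the core. Among the members, only ZAT7, ZAT8 and ZAT12 held CGCG in the 250 bases before the gene start. Lying above Col-0 in every 35S:RPS4 library did not set these 3 relatives apart. It held for 9 of the 10 members and for 17.9% of all tested genes. The promoters of the 3 relatives are shown. Each is given 5′ to 3′ towards the gene, with CGCG in capitals (TAIR10.1; ZAT7 chr3:16926884-16927133 and ZAT8 chr3:16923300-16923549 on the minus strand, ZAT12 chr5:24102564-24102813 on the plus strand).
ZAT7: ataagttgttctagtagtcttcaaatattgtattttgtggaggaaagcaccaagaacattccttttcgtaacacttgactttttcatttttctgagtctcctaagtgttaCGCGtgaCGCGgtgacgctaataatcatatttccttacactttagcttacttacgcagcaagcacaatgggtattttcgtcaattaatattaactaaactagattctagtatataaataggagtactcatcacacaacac
ZAT8: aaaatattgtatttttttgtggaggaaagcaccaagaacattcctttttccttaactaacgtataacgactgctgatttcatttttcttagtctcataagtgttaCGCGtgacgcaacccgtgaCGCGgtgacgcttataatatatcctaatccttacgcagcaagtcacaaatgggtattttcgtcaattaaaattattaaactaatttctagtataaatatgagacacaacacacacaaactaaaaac
ZAT12: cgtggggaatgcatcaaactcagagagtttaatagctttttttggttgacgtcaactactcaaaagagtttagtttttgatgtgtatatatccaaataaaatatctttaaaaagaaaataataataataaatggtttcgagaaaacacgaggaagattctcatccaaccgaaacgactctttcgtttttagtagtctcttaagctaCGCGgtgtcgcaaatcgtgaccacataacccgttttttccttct
CGCG was present in 10.1% of 27443 promoters of this length. The longest run around it common to all 3 promoters was ACGCGGTG, picked out after the sequences had been compared, which ended 126 bases before the start of ZAT7, 119 before that of ZAT8 and 37 before that of ZAT12. It occurred in 37 promoters (0.135%). Of the 21 tested genes with this run other than the members, 6 (28.6%) were raised and none lowered, where 6.46% of all tested genes were raised and 1.37% lowered, and since the run was chosen after the promoters were compared this is a description. Over whole promoters, ZAT7 and ZAT8 aligned with 68.8% identity and ZAT7 and ZAT12 with 47.9%. Identity in the bases next to the run was not measured.

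Other motifs, searched on both strands, were spread differently. The W-box core TTGAC, bound by WRKY factors, was found in 8 of 10 members (all promoters 44.9%), with ZAT6 and AZF3 as the exceptions. The heat shock element core GAANNTTC was found in 5 (all promoters 9.55%), in ZAT6, ZAT7, ZAT8, ZAT11 and ZAT12. The GCC-box GCCGCC was found in ZAT6 and ZAT10 (all promoters 1.87%), and the cold element CCGAC in ZAT6, ZAT10 and AZF2 (all promoters 12%). ACGTG, which contains CGTG, was found in ZAT10 alone (all promoters 22.9%). Its extension CACGTG (all promoters 6.49%) and CGCGTT, which contains CGCG (all promoters 2.59%), matched no member. AZF3 held none of the 8 motifs. Among all tested genes other than the members, 10.3% of those with CGCG, 10.9% of those with GAANNTTC and 8.76% of those with TTGAC were raised, and the range over the 8 motifs was 5.63% for CACGTG to 16.8% for CGCGTT. These matches describe letters in a window and no binding was measured.

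ZAT10 (AT1G27730, annotated STZ, chromosome 1, 9648021 to 9649323, minus strand), a repressor and MAP kinase substrate that acts in salt and osmotic stress, had the highest level of the group. It reached 387, 545 and 627 CPM in 35S:RPS4 replicates 1 to 3, against 1.46, 2.19 and 2.44 CPM in Col-0. The means were 520 ± 122 CPM in 35S:RPS4 and 2.03 ± 0.511 CPM in Col-0 (SD, n = 3 each), so the difference far exceeded the spread within either group. The log2 fold change (log2FC, 35S:RPS4 minus Col-0, as for all values here) was 7.998 (SE 0.29, FDR 1.47e-05 by edgeR). Genes were called raised at a false discovery rate (FDR) below 0.01 and a log2FC above 1, a rule that 6.46% of all 18382 tested genes met in this direction and that 8 of the 10 members met. Median log2FC was 7.31 over the 10 members, or 6.94 with ZAT8 set at its lower bound, and 0.01 over all genes tested.

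ZAT6 (AT5G04340, chromosome 5, 1216058 to 1217362, minus strand), the closest relative of ZAT10 in protein sequence among the 10, is known from work on salicylic acid, glutathione and phosphate. Its level was 241, 363 and 406 CPM in 35S:RPS4, against 1.62, 4.11 and 3.09 CPM in Col-0. The means were 337 ± 85.5 CPM in 35S:RPS4 and 2.94 ± 1.26 CPM in Col-0 (SD, n = 3 each). It was the most abundant member in Col-0, and its rise (log2FC 6.84, SE 0.38, FDR 6.98e-05) was the smallest among the 5 abundant ZAT genes.

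ZAT11 (AT2G37430, chromosome 2, 15706285 to 15707224, plus strand), known as a regulator of nickel tolerance, was nearly silent in wild-type leaves. It had 115, 204 and 243 CPM in 35S:RPS4, against 0.285, 0.0337 and 0.216 CPM in Col-0, where these values rest on 9, 1 and 7 reads. The mean ratio was 1050-fold (log2FC 9.98, SE 0.51, FDR 5.34e-05), which placed it at rank 17 of 18382 genes by log2FC. It was among the rarest transcripts of the set in Col-0 and the third most abundant in 35S:RPS4.

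ZAT12 (AT5G59820, annotated RHL41, chromosome 5, 24102814 to 24103794, plus strand), a hub of the high-light and oxidative stress response whose overexpression is known to lower CBF transcripts, had 62.7, 117 and 126 CPM in 35S:RPS4, against 0.349, 0.303 and 0.71 CPM in Col-0. The log2FC was 7.78 (SE 0.42, FDR 6.88e-05). Its means were 102 ± 34.1 CPM in 35S:RPS4 and 0.454 ± 0.223 CPM in Col-0 (SD, n = 3 each). The relatives ZAT7 and ZAT8 followed at lower levels. ZAT7, which acts in salt tolerance, had 49.7, 98 and 112 CPM in 35S:RPS4, against 0.0951, 0 and 0.247 CPM in Col-0 (log2FC 9.48, SE 0.60, FDR 0.000105). The Col-0 values rest on 3, 0 and 8 reads, and without Col-0 replicate 3 the log2FC was 10.67 (FDR 0.00105).

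ZAT8 was the only member with no read in any Col-0 library. In 35S:RPS4 it had 44, 236 and 83 reads, or 1.48, 8.01 and 3.03 CPM, so replicate 2 held most of its signal. With a floor of 3 reads over the Col-0 group, its level was at least 131-fold higher in 35S:RPS4. This bound was 69.3-fold without 35S:RPS4 replicate 2, and 86.7, 89.3 and 85.5-fold without Col-0 replicates 1, 2 and 3. It missed the call at an FDR of 0.016 by edgeR. It was called with the replicate number as a block (FDR 5.51e-05), by DESeq2 (FDR 4.14e-08), by limma voom (FDR 0.00747) and without 35S:RPS4 replicate 2 (FDR 0.00906), and its largest FDR over all alternatives was 0.0829. Its neighbour AT3G46070 had 5 reads over 35S:RPS4 and none over Col-0, too few to be tested.

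**Figure D1:**
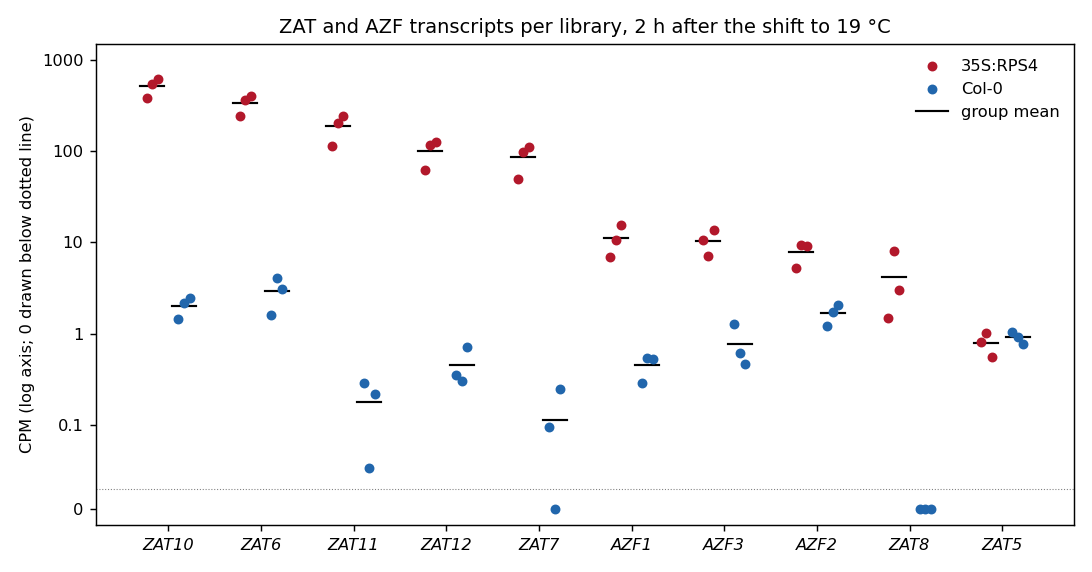
Level of each ZAT and AZF transcript in every library, as CPM on a log axis (red, 35S:RPS4; blue, Col-0; bars, group means; 3 libraries per group; libraries without a read are drawn below the dotted line). In 9 of 10 genes all 35S:RPS4 points lie above all Col-0 points, and in ZAT5 the groups overlap.

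The AZF genes, of which AZF1 and AZF2 are repressors known to be induced by abscisic acid and salt, were raised to a lesser degree. AZF1 (AT5G67450, chromosome 5, 26918765 to 26920179, minus strand) had 6.98, 10.6 and 15.7 CPM in 35S:RPS4, against 0.285, 0.539 and 0.525 CPM in Col-0 (log2FC 4.61, SE 0.40, FDR 0.000312). AZF3 (AT5G43170, chromosome 5, 17330945 to 17331646, minus strand) had 10.6, 7.09 and 13.9 CPM in 35S:RPS4, against 1.27, 0.607 and 0.463 CPM in Col-0 (log2FC 3.74, SE 0.40, FDR 0.000938). AZF3 thus stayed with the other AZF genes in its level, although its protein resembles ZAT10 most.

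AZF2 (AT3G19580, chromosome 3, 6802903 to 6804296, minus strand) had the smallest rise that was called, with 5.27, 9.33 and 9.18 CPM in 35S:RPS4, against 1.2, 1.72 and 2.07 CPM in Col-0. Its log2FC was 2.25 (SE 0.29, FDR 0.00167), and it was not called without Col-0 replicate 2 (log2FC 2.27, FDR 0.0123). ZAT5 (AT2G28200, chromosome 2, 12023940 to 12025370, plus strand), whose protein is the longest of the set, had 0.805, 1.02 and 0.548 CPM in 35S:RPS4, against 1.05, 0.91 and 0.772 CPM in Col-0. These groups overlapped, and the log2FC was -0.20 with a 95% interval of -0.91 to 0.51 (FDR 0.745). The interval leaves out a rise of the size seen in any other member.

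**Figure D2:**
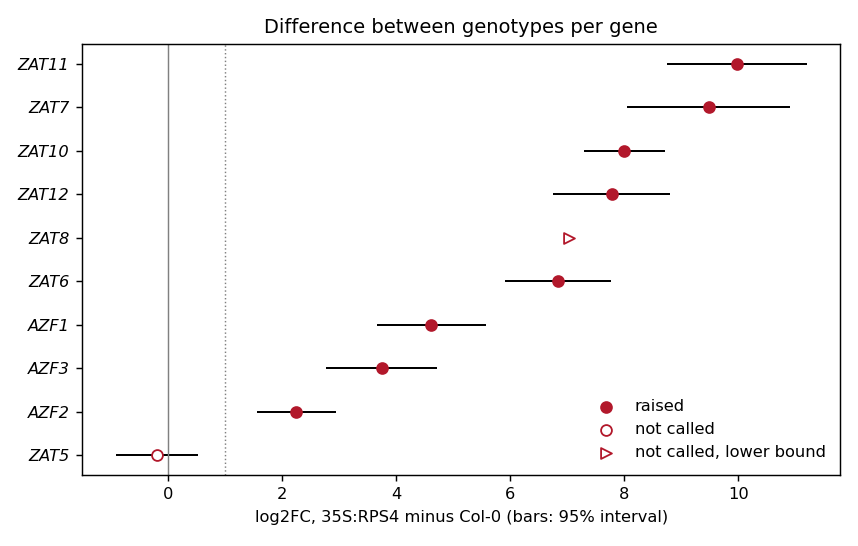
Difference between the genotypes for each gene, as log2FC of 35S:RPS4 minus Col-0 with its 95% interval (filled, raised; open, not called; dotted line, fold threshold of 1). ZAT11 and ZAT7 lie at 9.98 and 9.48, the AZF genes between 2.25 and 4.61, ZAT5 at -0.20, and the triangle gives the lower bound of 7.03 for ZAT8.

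By whether the groups overlapped, 9 of the 10 members lay wholly above Col-0, as did 17.9% of all tested genes. No member lay wholly below Col-0 (16.3% of all tested genes) or was lowered (1.37%). Summed over the 10 genes, the level was 880, 1364 and 1556 CPM in 35S:RPS4, against 7.61, 10.4 and 10.5 CPM in Col-0. In bulk leaf RNA, more cells with a transcript and more transcript per cell cannot be told apart.

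The make-up of the sum differed between the genotypes. ZAT10 held a mean of 41.4% of it in 35S:RPS4 and 21.1% in Col-0, and ZAT11 held 14.5% in 35S:RPS4 and 2.04% in Col-0. The share of ZAT6 was 26.7% in 35S:RPS4 and 30% in Col-0. AZF2, with the smallest rise that was called, held 0.624% in 35S:RPS4 and 17.3% in Col-0, and ZAT5, which was not called, held 0.0671% in 35S:RPS4 and 9.94% in Col-0.

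Divided by transcript length, levels could be set beside each other between genes. In 35S:RPS4 the mean CPM per kb was 399 for ZAT10, 258 for ZAT6, 199 for ZAT11, 104 for ZAT12 and 86.3 for ZAT7. This order held within each of the 3 libraries, although the ranges of neighbours overlapped between libraries. A gap followed, since AZF3 (15 CPM per kb) lay below ZAT7 without overlap. AZF1 (7.83), AZF2 (5.68) and ZAT8 (5.31 CPM per kb) overlapped with their neighbours, and ZAT5 (0.552 CPM per kb) lay below all of them. In Col-0 all 10 genes lay between 0 and 2.25 CPM per kb on average, in another order, led by ZAT6, ZAT10 (1.56) and AZF2 (1.19), and every neighbour in that order overlapped.

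The spread within 35S:RPS4 was shared by most of the genes. Replicate 1 was the lowest of the 3 libraries in 8 of the 10 members, at 0.473 of the mean of replicates 2 and 3 in ZAT7, 0.517 in ZAT12 and 0.66 in ZAT10. The raised genes as a whole had a median of 0.63. AZF3, at 1.01, and ZAT5, at 1.03, did not follow. Col-0 replicate 1 also lay below the mean of Col-0 replicates 2 and 3 in most members. The ratio there was 0.449 in ZAT6, 0.536 in AZF1, 0.629 in ZAT10, 0.636 in AZF2, 0.688 in ZAT12 and 0.77 in ZAT7. It was 1.24 in ZAT5, 2.28 in ZAT11 and 2.37 in AZF3, and ZAT8 had no read in Col-0. RPS4 was lowest in replicate 1 of both groups, as given above, and its part in the spread was not tested.

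**Figure D3:**
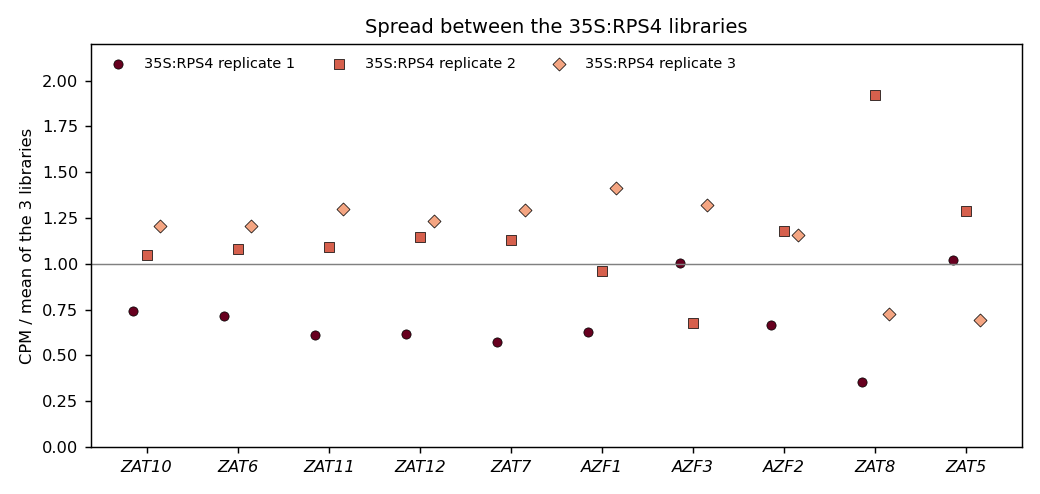
Level of each gene in 35S:RPS4 replicates 1, 2 and 3, as CPM divided by the mean of the 3 libraries. Replicate 1 lies lowest in 8 of 10 genes, and ZAT8 has the widest spread, with 236 reads in replicate 2 against 44 and 83 in the others.

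The genes closest in pattern were sought among 13388 other tested genes with a mean level of at least 5 CPM, by the root mean square difference of log2(CPM + 0.5) after each gene was centred over the 6 libraries. The added 0.5 CPM flattens values near 0, so genes with little signal in Col-0 can lie close together here and still differ in fitted log2FC. On this scale ZAT10 (log2FC 7.998) was nearest to AT4G27280 (0.114 log2 units), AT1G66090 (0.144) and the ethylene response factor gene ERF13 (AT2G44840, 0.197), whose log2FC were 8.14, 8.35 and 9.36. ZAT12 (log2FC 7.78) was nearest to AT3G28580 (0.089), PP2-B14 (AT1G56250, 0.141) and the receptor kinase gene B120 (AT4G21390, 0.155), whose log2FC were 9.79, 8.48 and 7.02. AT3G28580 averaged 0.0627 CPM in Col-0, well under the added 0.5 CPM. These genes share the 6 libraries and the difference between the genotypes, which dominates the measure.

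Of the 50 other genes with the QALGGH signature, 11 had enough reads to be tested, with a median log2FC of -0.15. Of these 11, 1 was raised and 2 were lowered (all tested genes, 6.46% raised and 1.37% lowered). The rest of the 50 had too few reads for a test. AT5G04390 rose, with 0.738, 0.746 and 1.02 CPM in 35S:RPS4 against 0.0951, 0.101 and 0.216 CPM in Col-0 (log2FC 2.55, FDR 0.00423), but it was not called without either of 35S:RPS4 replicates 2 and 3 (FDR 0.017 and 0.0205) or without either of Col-0 replicates 1 and 2 (FDR 0.016 and 0.0227). ZFP8 (AT2G41940, log2FC -1.45) and ZFP7 (AT1G24625, log2FC -1.11) fell. ZFP8 missed the call without Col-0 replicate 2 (FDR 0.0109), and ZFP7 without Col-0 replicate 2 (log2FC -0.99) or without 35S:RPS4 replicate 2 (FDR 0.0123) or 3 (log2FC -0.98). GIS (AT3G58070), at -1.05 (FDR 0.019), was not called, but was with upper-quartile scaling (FDR 0.00651), with plain library size (FDR 0.00726), with DESeq2 (FDR 0.00366) and with the replicate block (FDR 0.00869). GIS and ZFP8 are known for their roles in trichome formation.

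Known regulators of ZAT genes were raised in part. Of 5 listed kinases and heat shock factors, 3 rose, where 6.46% of all tested genes were raised. MPK3 (AT3G45640), a kinase of ZAT10, had a log2FC of 4.23, HSFA4A (AT4G18880), a heat shock factor upstream of ZAT12, 3.36, and HSFA8 (AT1G67970) 2.45. MPK6, which is known to phosphorylate ZAT10 and ZAT6, had 0.10 (FDR 0.552). Of the 6 CAMTA genes, CAMTA3 (AT2G22300, 2.14) and CAMTA4 (AT1G67310, 2.15) rose, and CAMTA2, at 0.997, lay just under the fold threshold and passed it without 35S:RPS4 replicate 1 (1.08), Col-0 replicate 2 (1.05) or Col-0 replicate 3 (1.003).

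The co-repressors through which EAR motifs act did not pass the test. Values ran from -0.14 for SAP18 to 0.16 for HDA6 over the 8 genes, with a median of 0.01, and TPL itself was at 0.00 (FDR 0.998). The summed level of the list was 320 to 329 CPM in 35S:RPS4 and 313 to 322 CPM in Col-0. Of the 2 listed protein partners, WRKY70 (AT3G56400), a known partner of ZAT7, rose by 1.90, and FIT, a partner of ZAT12, had -0.38 (FDR 0.72).

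Listed targets of ZAT6 and listed reactive oxygen enzymes moved in different ways. Of 8 listed targets of ZAT6, 7 were tested and 3 rose, where 6.46% of all tested genes were raised. These were PAD4 (AT3G52430, 4.65), EDS1 (AT3G48090, 3.15) and the phytochelatin synthase gene PCS1 (AT5G44070, 2.37). A part of ZAT6 in these rises was not tested. PCS1 missed the call without 35S:RPS4 replicate 2 (FDR 0.0104) and without a filter on low counts (FDR 0.0102). PR5 (0.89, FDR 0.0315), GSH2 (0.28), GSH1 (0.20) and PR2 (0.46) were not called, and PR1 had no read in any library. Of 10 reactive oxygen enzymes, 9 were tested and RBOHD (AT5G47910), the NADPH oxidase of the immune burst, rose by 3.94, while the others ran up to 0.53 for CSD1. APX1, whose induction in oxidative stress needs ZAT12, had 0.41 (FDR 0.183), and APX2 had 2 reads over 35S:RPS4 and 4 over Col-0.

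Both groups were cooled and no earlier library was analysed, so a cold response common to both cannot be seen. Relative to Col-0, the cold regulon, which ZAT12 and ZAT10 accompany in plants moved to low temperature, was not raised with them. None of its 8 listed genes rose and 2 fell (all tested genes, 6.46% raised and 1.37% lowered). Those that fell were CBF3 (AT4G25480, log2FC -2.47) and CBF1 (AT4G25490, -1.97). CBF2 (AT4G25470) had -1.87 with an FDR of 0.0105, on the other side of the threshold. CBF1 had 0.268, 0.271 and 0.183 CPM in 35S:RPS4, against 0.634, 1.08 and 1.17 CPM in Col-0. These calls depended on which libraries were used. CBF1 was not called with limma voom (FDR 0.0181) or when any 1 library other than Col-0 replicate 1 was left out (FDR 0.0196 to 0.0453), and CBF3 was lost with the replicate block (FDR 0.0188) and without 35S:RPS4 replicate 2 (FDR 0.0216), Col-0 replicate 2 (FDR 0.0156) or Col-0 replicate 3 (FDR 0.0146). CBF2 was called with the replicate block (FDR 0.00388), by DESeq2 (FDR 0.000376) and with upper-quartile scaling (FDR 0.0054), among other settings. The target genes RD29A (-0.23), COR15A (-0.14), COR15B (-0.27) and COR47 (-0.14) were not called, and KIN1 had 0.69 (FDR 0.0249).

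Clock genes, which follow the time of day at sampling, were compared as well. None of the 7 was called, with a median log2FC of -0.07, and 6 of them lay between -0.23 and 0.05. PRR5 had -0.93 (FDR 0.0256), and was called without 35S:RPS4 replicate 1 at -1.24. Guard cell markers summed to 51.6 to 53.2 CPM in 35S:RPS4 and 41.3 to 42.7 CPM in Col-0, without overlap, and vascular markers to 299 to 307 CPM in 35S:RPS4 and 275 to 348 CPM in Col-0. None of the 4 guard cell and 4 vascular markers was called, and their part in the differences above was not tested.

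**Figure D4:**
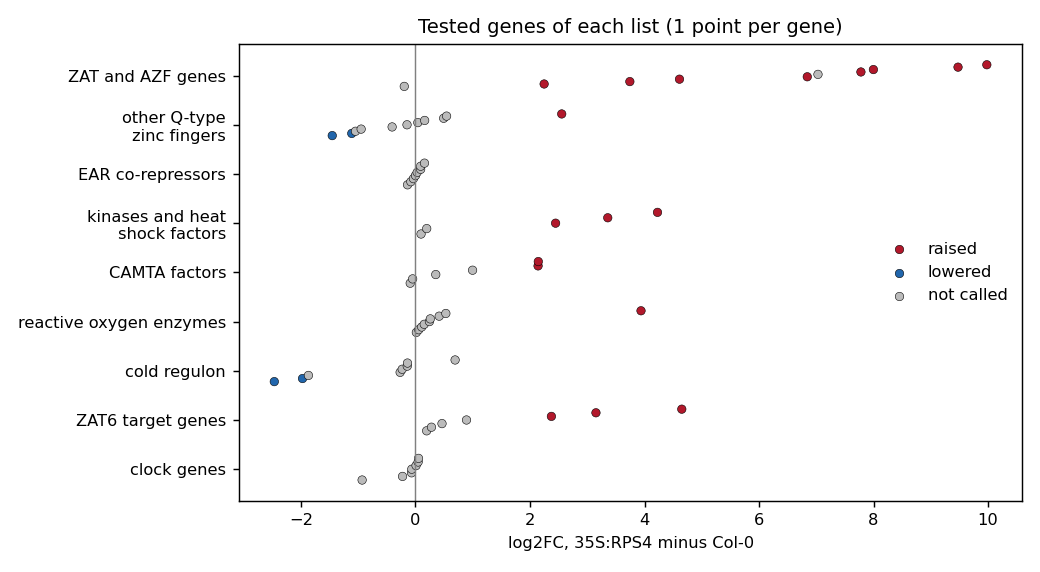
log2FC of 35S:RPS4 minus Col-0 for each tested gene of the ZAT and AZF set and of 8 lists (red, raised; blue, lowered; grey, not called; ZAT8 at its lower bound). Of the ZAT and AZF genes, the 8 raised ones lie at or above 2.25, ZAT8 has its bound at 7.03, ZAT5 lies at -0.20, the EAR co-repressors lie within -0.14 to 0.16, and the CBF genes of the cold regulon lie at -1.87 to -2.47.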

How the data were processed

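Deposited by the authors was a table of unnormalized gene counts with 1 column for each of the 6 leaf libraries (TruSeq RNA v2, polyA RNA). The authors' processing notes name TAIR10, FastQC 0.11.2, TopHat2 2.0.10 and HTSeq; roles, settings and strand handling are not given in the sources used here. Summary entries that are no genes (6.45 to 8.30% of counts) were set aside. Testing used the quasi-likelihood method of edgeR 4.0.16 under R 4.3.3, two-sided, with genotype as the only term, the default filter on low counts, TMM scaling, robust dispersions and Benjamini-Hochberg FDR over 18382 genes. The thresholds, FDR 0.01 and log2FC 1, are the study's. Alternatives used DESeq2 1.42.0, limma 3.58.1 voom, other scalings, other filters, a replicate block and omission of each library. The fit was tested on simulated data.

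Deviations from the group means correlated at 0.43, 0.13 and 0.28 between libraries of equal number. Between unequal numbers the values ran from -0.36 to 0.16. The values 0.43 and 0.28 lay above this range and 0.13 within it, so pairing by number was not settled for every replicate. The edgeR fit with genotype as the only term left the numbers out. The replicate block, run as an alternative, took them as pairs, and the call of ZAT8 depended on this choice. Whether the replicates came from separate plants is not given in the sources used here, so the tests see only library-to-library spread, which may be technical. Bounds cover counting error only. The members and lists were chosen with earlier results of these data known. Named genes are the 10 members, RPS4, the called or lowest-FDR members of each list, and the 3 genes nearest in profile to ZAT12 and ZAT10; others named were chosen after their values were seen, as were the leucine repeat and the shared promoter run. Gene models, promoters and coding sequence came from RefSeq's TAIR10.1 assembly, in which 31912 of 32678 identifiers matched. Protein features were computed by translating its coding sequence.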

Additional observations from a re-analysis of the deposited data

How the results depend on the processing

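The number of members called raised was 7 to 9 with each library left out, and 8 or 9 under every other alternative run. ZAT6, ZAT7, ZAT10, ZAT11, ZAT12, AZF1 and AZF3 were raised under all 16 alternatives, with log2FC from 3.47 for AZF3 to 10.70 for ZAT11, the value without replicate 1 of both groups. AZF2 was called under 15 of 16 and ZAT8 under 5, among them an FDR threshold of 0.05. ZAT5 was called under none of the 16, with log2FC of -0.418 to 0.004 when each library was left out, the positive value without 35S:RPS4 replicate 3. The replicate block changed no member's call other than that of ZAT8. Among all genes, the number lowered, 251, was 391 with upper-quartile scaling, 377 with plain library size, 381 at an FDR below 0.05 and 404 without replicate 1 of both groups, an alternative added after seeing the data. It was 99 to 337 with each library left out. Upper-quartile scaling moved the median log2FC of all genes to -0.17 and plain library size to -0.16, and the raised share of called genes to 73.9% and 74.3%, against 82.6%. The causes were not tested. Low counts limit ZAT8, ZAT11 and ZAT7 in Col-0, so their fold changes are the least precise.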
